A study of Mus musculus with 6 samples.

Results

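The genes described here are 10 members of the insulin-like growth factor 1 (IGF1) axis: the ligand gene Igf1, its receptor gene Igf1r, the binding protein genes Igfbp2 to Igfbp7, the protease gene Pappa and the protease inhibitor gene Stc2. They were taken by symbol from a count table of 55487 genes, and all 10 were found. All 10 also passed the filter on low counts that left 15801 genes for testing. Primary fibroblasts from lungs of wild-type C57BL/6 mice had been grown in 10% serum and held in 0.1% serum for 24 h. For the next 24 h one group received PBS and the other rmCIRBP, recombinant mouse cold-inducible RNA-binding protein, at 1 µg/mL. There were 3 polyA-selected RNA libraries per group, and the PBS cells shared the starvation but did not receive the added protein. The comparison addresses what extracellular CIRBP does to lung fibroblasts. Whether replicates came from separate animals or cultures is not stated. The p-values therefore measure only the spread between these libraries, which may be technical.

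IGF1 is a secreted growth factor that binds the receptor tyrosine kinase IGF1R and signals through insulin receptor substrate proteins to PI3K, AKT and TOR. In the extracellular space most IGF is held by binding proteins of the IGFBP family, which can keep it from the receptor or carry it to matrix and cell surface. The metalloprotease PAPP-A, encoded by Pappa, cuts IGFBP4 and some other binding proteins and so frees IGF, and stanniocalcins block PAPP-A. Lung fibroblasts are a known source of both IGF1 and IGF-binding proteins.

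Libraries held 12105584 to 14262375 counts, and each member had 203 to 19820 counts in every library, so counting error was small beside the spread between libraries. Levels are given in CPM, counts scaled to a common library total. The level that a library with 0 counts still allows, 3 counts, was 0.205 to 0.249 CPM, a limit that covers counting error only. Of 8 fibroblast markers all were expressed, with a summed level of 19851 to 28570 CPM. Among them edgeR called Thy1 lower (161 ± 26.2 to 69.3 ± 11.4 CPM) and Dcn higher (103 ± 34.2 to 238 ± 50.5 CPM). Markers of epithelial cells (7 of 7), lymphocytes (6 of 6) and neutrophils (5 of 6) averaged under 1 CPM. The other neutrophil marker, Camp, had 0 counts in PBS and 1.299 to 2.72 CPM in rmCIRBP, and was called higher. S100a8 (0 to 0.249 CPM in PBS, 0.732 to 0.881 in rmCIRBP) and Csf3r (0 in PBS, 0.361 to 0.661 in rmCIRBP) were also higher without overlap, but failed the filter. Mpo overlapped, and S100a9 and Ly6g had 0 counts throughout. The sum of the 6 neutrophil markers was 0 to 0.249 CPM in PBS and 2.53 to 4.40 CPM in rmCIRBP. The sum of 6 endothelial markers was 19.4 to 26.7 CPM in PBS and 5.92 to 8.22 CPM in rmCIRBP, with Kdr and Tek called lower. That of 5 mesothelial markers was 9.26 to 15.1 and 3.22 to 6.09 CPM, with Upk3b called lower. Here too 4 of the 6 endothelial and 3 of the 5 mesothelial markers averaged under 1 CPM. The endothelial sum was mostly Kdr (13.9 ± 2.70 to 1.24 ± 0.394 CPM) and Tek (8.46 ± 0.940 to 4.26 ± 0.813 CPM). The part of these cell types in the results on the members was not tested. Smooth muscle genes varied within groups. Myh11, smooth muscle myosin, was at 446, 204 and 172 CPM in PBS libraries 1, 2 and 3 and at 211, 660 and 68.2 CPM in rmCIRBP libraries 1, 2 and 3. Actg2, smooth muscle gamma actin, was at 354, 128 and 116 CPM in PBS and at 199, 642 and 49.3 CPM in rmCIRBP. The sum of 6 smooth muscle markers was 651 to 1392 CPM in PBS and 300.4 to 2045 CPM in rmCIRBP, highest in PBS 1 and rmCIRBP 2.

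Two-sided testing of rmCIRBP against PBS with edgeR's quasi-likelihood test, adjusted by Benjamini-Hochberg (BH) over all genes at 0.05, called 11.5% of the genes tested, 1065 of them higher and 753 lower. When libraries were instead scaled by upper quartile, 925 were higher and 1022 lower. Among the 10 members 2 were called: Igfbp3 and Igf1, both higher after rmCIRBP, where 6.74% of all genes were called higher. No member was called lower, where 4.77% of all genes were. The members' median log2 fold change was 0.09, against -0.01 over all genes tested. At an unadjusted p of 0.05, 4 of the 10 passed, the others being Pappa (higher) and Igfbp6 (lower), where 28.8% of all genes passed. DESeq2 called Igfbp6 lower (adjusted p = 0.00853) and Pappa higher (adjusted p = 0.0150) beside Igf1 and Igfbp3, and called 13.9% of the genes it tested. Without the filter on low counts edgeR called these same 4 members, and 9.29% of all genes. The groups did not overlap for these 4 members, as for 34.6% of all genes tested: 3 were higher, where 17.5% of all genes were higher without overlap, and 1 was lower, where 17.1% were.

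**Figure D1:**
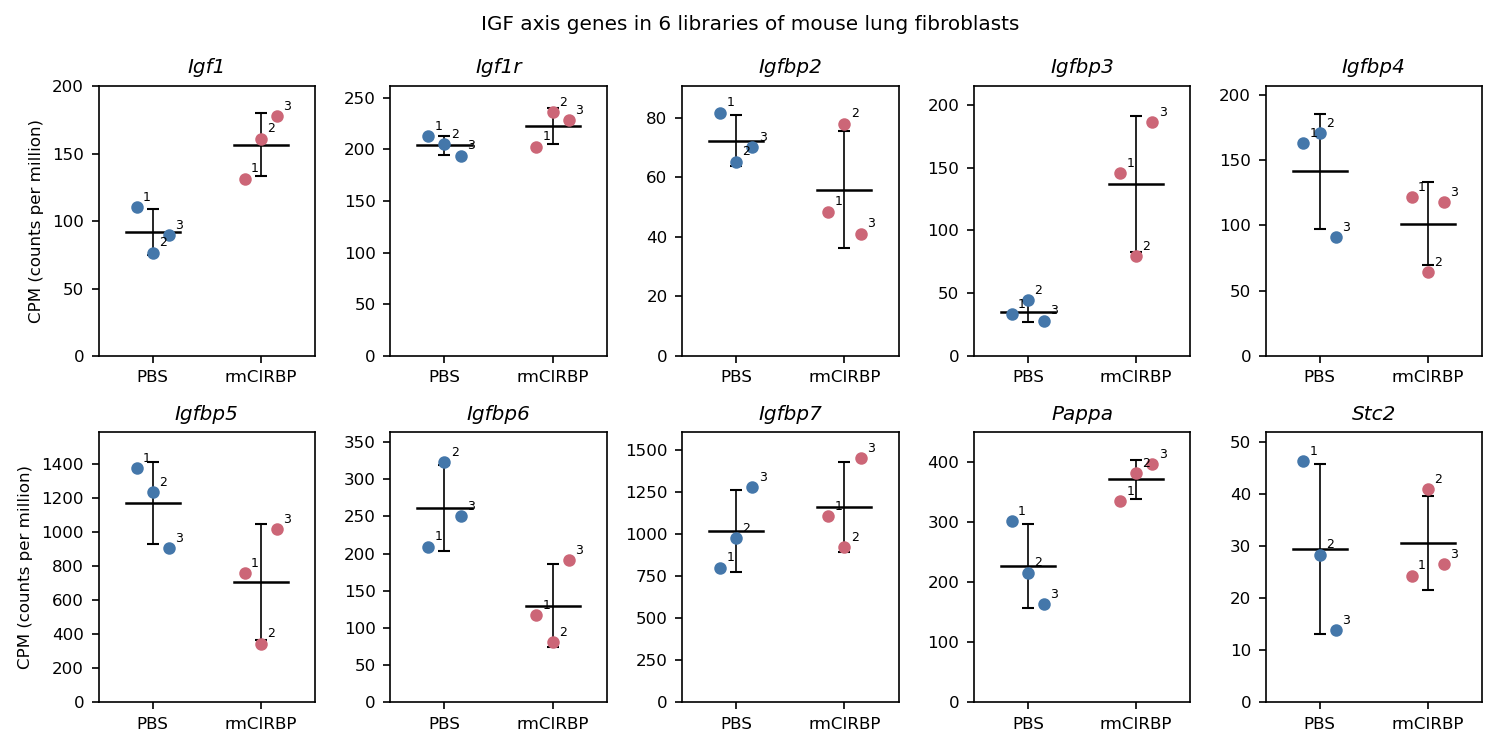
CPM of each of the 10 genes (y axis, starting at 0) by treatment group (x axis). Each point is 1 library, numbered by its replicate number, and no pairing of libraries across groups is stated. The line is the group mean and the bar its SD (n = 3). Igf1, Igfbp3 and Pappa have every rmCIRBP library above every PBS library, and Igfbp6 has every rmCIRBP library below.

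Igf1, the ligand of the axis (chromosome 10, 87858265 to 87937042, GRCm38, plus strand), was at 110, 76.6 and 89.6 CPM in PBS libraries 1, 2 and 3. After rmCIRBP it was at 132, 161 and 178 CPM. The lowest rmCIRBP library lay above the highest PBS library. Igf1 rose from 92.2 ± 17.1 to 157 ± 23.4 CPM (SD, n = 3 each), which is 1.70-fold (log2 ratio of rmCIRBP to PBS 0.77 ± 0.17, SE; BH-adjusted p = 0.0253 by edgeR). The call ended without PBS 2 (adjusted p = 0.0890), PBS 3 (0.0968) or rmCIRBP 3 (0.0610), with log2 fold changes of 0.66, 0.75 and 0.67. Macrophages are another known source of IGF1. The sum of 8 macrophage markers was 22.0 to 26.2 CPM in PBS and 44.1, 50.8 and 29.0 CPM in rmCIRBP libraries 1, 2 and 3. None of the 8 was at 0 in every library, and 2 averaged under 1 CPM (Cx3cr1 and Fcgr1). These markers did not move together: Adgre1 (1.63 ± 0.221 to 8.96 ± 3.29 CPM) and Marco (0.2005 ± 0.0628 to 9.797 ± 4.22 CPM) were called higher, Mrc1 (3.304 ± 0.662 to 1.04 ± 0.432 CPM) was called lower, and Cd68 was at 7.09 ± 0.819 and 5.35 ± 2.38 CPM. Csf1r (9.85 ± 1.84 and 13.3 ± 1.29 CPM) and Ptprc (1.23 ± 0.768 and 2.67 ± 1.38 CPM) were higher after rmCIRBP but not called. The rmCIRBP library with the highest Igf1, library 3, had the lowest macrophage sum of its group. The part of macrophages in the level of Igf1 was not tested. An antisense gene, Igf1os, lies over Igf1 and held at most 2 counts in a library.

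The other ligand gene of the family, Igf2, which is imprinted and active mainly in the embryo, held 0 to 0.293 CPM over the 6 libraries. This is at or near the level of 3 counts. Igfals, whose protein stabilises circulating IGF complexes, held 0.0682 to 0.659 CPM. Both failed the filter on low counts, so Igf1 was the only IGF ligand gene tested.

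Igf1r, the receptor (chromosome 7, 67952827 to 68233668, plus strand), was the steadiest member. It was at 212, 205 and 194 CPM in PBS and at 202, 236 and 228 CPM in rmCIRBP libraries 1, 2 and 3. The groups overlapped, and the log2 ratio was 0.12 ± 0.11 (SE; BH-adjusted p = 0.491 by edgeR). Its coefficient of variation was 4.59% in PBS and 7.86% in rmCIRBP, while those of the other members ran from 8.73% to 55.2%. Insr, the related insulin receptor, was at 78.1 ± 5.94 CPM in PBS and 70.04 ± 3.80 CPM after rmCIRBP (SD, n = 3 each; log2 ratio -0.16 ± 0.10, SE; BH-adjusted p = 0.342 by edgeR). Per length, in RPKM (CPM per kilobase of annotated exon), Igf1r stood at 1.97 to 2.44 times Insr in PBS libraries and at 2.52 to 2.69 times in rmCIRBP libraries. This ratio was not tested, and neither gene was called.

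Igf2r, the mannose 6-phosphate receptor that takes up and clears IGF2, fell from 703 ± 149 to 372 ± 67.0 CPM (log2 ratio -0.92 ± 0.20, SE; BH-adjusted p = 0.0253 by edgeR). The libraries were at 545, 722 and 840 CPM in PBS and at 379, 301 and 435 CPM after rmCIRBP, with no overlap. The call of Igf2r ended without PBS 2 (0.0955), PBS 3 (0.0918) or rmCIRBP 1 (0.0878).

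Igfbp3 showed the largest change of the 10 members. IGFBP3 is the main IGF carrier of blood, where it forms a complex with IGF and the acid-labile subunit, and fibroblasts secrete it. The gene lies on chromosome 11 (7206086 to 7213923, minus strand), and was at 33.5, 44.3 and 28.2 CPM in PBS libraries 1, 2 and 3 and at 146, 79.2 and 186 CPM in rmCIRBP libraries 1, 2 and 3. Every rmCIRBP library was above every PBS library, and rmCIRBP 2 was the lowest of its group. Igfbp3 rose 3.88-fold, from 35.4 ± 8.23 to 137 ± 53.9 CPM (log2 ratio 1.95 ± 0.31, SE; BH-adjusted p = 0.00734 by edgeR). It was called under each of the 16 alternative analyses run, with adjusted p from 5.19e-09 to 0.0383. Its neighbour Igfbp1, which lies tail to tail with it at a distance of 3.54 kb and encodes a binding protein made mainly by liver, had 0 counts in all 6 libraries.

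The promoter of Igfbp3, the member with the largest increase, and that of Igfbp6, the member with the lowest fold change, are shown as the 250 bases before the RefSeq start site (GRCm38.p6), written 5′ to 3′ on the gene's strand. Igfbp3 is at chr11:7213924-7214173, minus strand, and Igfbp6 at chr15:102143936-102144185, plus strand, its RefSeq start lying 176 bases before the deposited gene. Capitals mark matches, on either strand, to a loose NF-kB pattern: GGG, any 5 bases, then CC.
Igfbp3: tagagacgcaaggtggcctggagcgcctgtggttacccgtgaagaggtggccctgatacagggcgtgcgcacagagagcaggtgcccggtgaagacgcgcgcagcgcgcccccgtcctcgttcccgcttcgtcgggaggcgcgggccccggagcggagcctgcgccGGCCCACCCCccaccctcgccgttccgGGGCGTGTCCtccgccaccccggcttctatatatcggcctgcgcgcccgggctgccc
Igfbp6: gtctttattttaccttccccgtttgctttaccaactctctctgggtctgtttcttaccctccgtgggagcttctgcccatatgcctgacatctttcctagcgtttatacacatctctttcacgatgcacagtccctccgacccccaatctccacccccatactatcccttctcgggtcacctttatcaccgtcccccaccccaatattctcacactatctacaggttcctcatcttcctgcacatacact

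The Igfbp3 window was 73.2% G or C and the Igfbp6 window 49.6%. Igfbp3 held 2 matches to the NF-kB pattern, at bases 84 to 75 and 57 to 48 before the start, and Igfbp6 held none. This pattern is common: 45.8% of 32851 RefSeq promoter windows of the same length held it. Of the members, 9 had an entry, with 10 windows in all, and 5 windows held the pattern (Igf1, Igfbp2, Igfbp3, Igfbp4 and Igfbp5). TGANTCA, the AP-1 pattern, was in 2 member windows (Igf1 and Igfbp2) and in 6.75% of all windows. The C/EBP pattern TTGCNNNAA, the STAT pattern TTCNNNGAA and the FOXO pattern GTAAACA were in no member window, and in 8.29%, 7.02% and 3.17% of all windows. All patterns were searched on both strands, and no match overlapped another in the printed windows. The RefSeq start site of Igf1 lies 2846 bases inside the deposited gene. All 250 bases of the Igf1 window are exonic in the GENCODE annotation, so its letters are not shown.

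Of the other 5 binding protein genes none passed the test. Igfbp6, which prefers IGF2 over IGF1, lies on chromosome 15 (102144362 to 102149511, plus strand). It was at 209, 323 and 249.95 CPM in PBS and at 117, 81.3 and 191 CPM in rmCIRBP libraries 1, 2 and 3. The groups did not overlap. Its log2 ratio was -1.01 ± 0.30 (SE; BH-adjusted p = 0.0710 by edgeR), and leaving out rmCIRBP 3, the highest of its group, gave -1.39 with an adjusted p of 0.0150. With 1 library left out in turn the ratio ran from -1.39 to -0.75, and the adjusted p of the alternative analyses reached 0.221.

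Igfbp5 binds matrix and is known as a fibroblast product in fibrotic lung. It lies on chromosome 1 (72857932 to 72874884, minus strand) and was at 1378, 1235 and 906 CPM in PBS libraries 1, 2 and 3 and at 759, 345 and 1019 CPM in rmCIRBP libraries. The groups overlapped, rmCIRBP 3 being above PBS 3, and rmCIRBP 2 stood far below the rest. The log2 ratio was -0.73 ± 0.36 (SE; BH-adjusted p = 0.224 by edgeR), and it was -0.40 without rmCIRBP 2 and -1.08 without rmCIRBP 3. Neither of these fits called it (adjusted p = 0.303 and 0.0923).

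Igfbp2, a carrier that also binds integrins, is the tail-to-tail neighbour of Igfbp5 on chromosome 1 (72824503 to 72852474, plus strand), 5.46 kb away. It was at 81.6, 65.2 and 70.01 CPM in PBS and at 48.4, 78.0 and 41.1 CPM in rmCIRBP libraries 1, 2 and 3. Of the rmCIRBP libraries, 1 and 3 were below all PBS libraries and 2 was within their range. The log2 ratio was -0.37 ± 0.23 (SE; BH-adjusted p = 0.320 by edgeR), and without rmCIRBP 2 it was -0.69, with an adjusted p of 0.0182. Without rmCIRBP 3 it was -0.19, with an adjusted p of 0.603.

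Igfbp4, the main substrate of PAPP-A (chromosome 11, 99041244 to 99054392, plus strand), was at 163, 171 and 90.8 CPM in PBS and at 122, 64.4 and 118 CPM after rmCIRBP. PBS 3 lay within the range of the rmCIRBP libraries. The log2 ratio was -0.48 ± 0.30 (SE; BH-adjusted p = 0.332 by edgeR). It was -0.72 without PBS 3, -0.23 without rmCIRBP 2 and -0.12 without PBS 1 and rmCIRBP 2 together, and no alternative called it.

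Igfbp7 encodes a matrix protein that binds IGF weakly and is the most distant member of the family. It lies on chromosome 5 (77349240 to 77408041, minus strand) and was at 799.8, 977 and 1279 CPM in PBS and at 1107, 923 and 1451 CPM after rmCIRBP. The groups overlapped, and the log2 ratio was 0.19 ± 0.23 (SE; BH-adjusted p = 0.626 by edgeR). Leaving out rmCIRBP 3 turned its sign, to -0.002107. The gene overlaps Polr2b on the other strand, which held 854 to 1160 counts. As the strand setting of the counting is not given in the sources used here, their reads may not be fully separated.

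**Figure D2:**
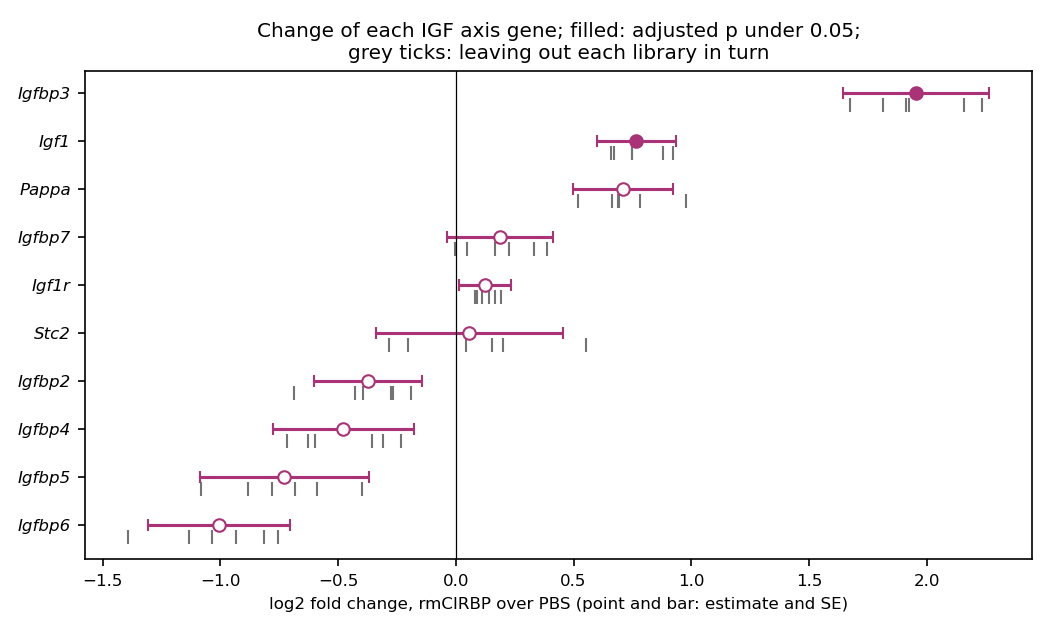
Log2 fold change of each gene, rmCIRBP over PBS (x axis), with its SE from the edgeR fit. Filled points passed an adjusted p of 0.05 (Igfbp3 and Igf1), and grey ticks show the value with each library left out in turn. The ticks of Igfbp7 and Stc2 reach to the other side of 0, whereas those of the other 8 genes stay on one side.

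Per length, the binding protein transcripts were dominated by Igfbp7. Its RPKM was 842 ± 200.3 in PBS (SD, n = 3), above 99.9% of the genes tested. Igfbp6 was at 235 ± 51.9 RPKM and Igfbp5 at 195 ± 40.4 RPKM in PBS, above 99.1% and 98.8% of the genes, and these neighbours in the order did not differ beyond their SD. Igfbp2 and Igfbp4 followed at 39.1 ± 4.57 and 32.0 ± 9.98 RPKM, also within their SD of each other. Igfbp3 was the lowest in PBS, at 11.3 ± 2.63 RPKM. After rmCIRBP Igfbp3 was at 43.7 ± 17.2 RPKM, beside Igfbp2 at 30.2 ± 10.6 and Igfbp4 at 23.0 ± 7.28, and it was within its SD of Igfbp2 but not of Igfbp4. Igfbp5 and Igfbp6 were at 118 ± 56.6 and 117 ± 50.4 RPKM.

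These levels give each binding protein a share of the summed RPKM of Igfbp2 to Igfbp7. Igfbp3 made up 0.600% to 1.02% of the sum in the PBS libraries and 2.59% to 3.73% in the rmCIRBP libraries. Igfbp6 made up 14.98% to 20.9% in PBS and 7.49% to 10.4% in rmCIRBP. Neither pair of ranges overlapped. The share of Igfbp7 was 56.5% to 70.5% in PBS and 72.7% to 78.2% in rmCIRBP, also without overlap. The ranges of Igfbp5 overlapped, at 10.0% to 19.6% in PBS and 5.89% to 10.3% in rmCIRBP. For Igfbp7 and Igfbp5 the overlap depended on the unit. In shares of CPM without length, Igfbp7 overlapped (30.0% to 48.7% in PBS, 48.1% to 58.7% in rmCIRBP). Igfbp5 did not (34.5% to 51.7% in PBS, 22.0% to 33.9% in rmCIRBP). In RPKM, the ratio of Igfbp5 to Igfbp3 was 14.5 to 21.4 in PBS and 2.27 to 2.86 in rmCIRBP. In CPM it was 27.9 to 41.1 and 4.36 to 5.48. This ratio does not depend on how libraries are scaled, but its size depends on the unit. These shares and ratios are descriptions, with no test.

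**Figure D3:**
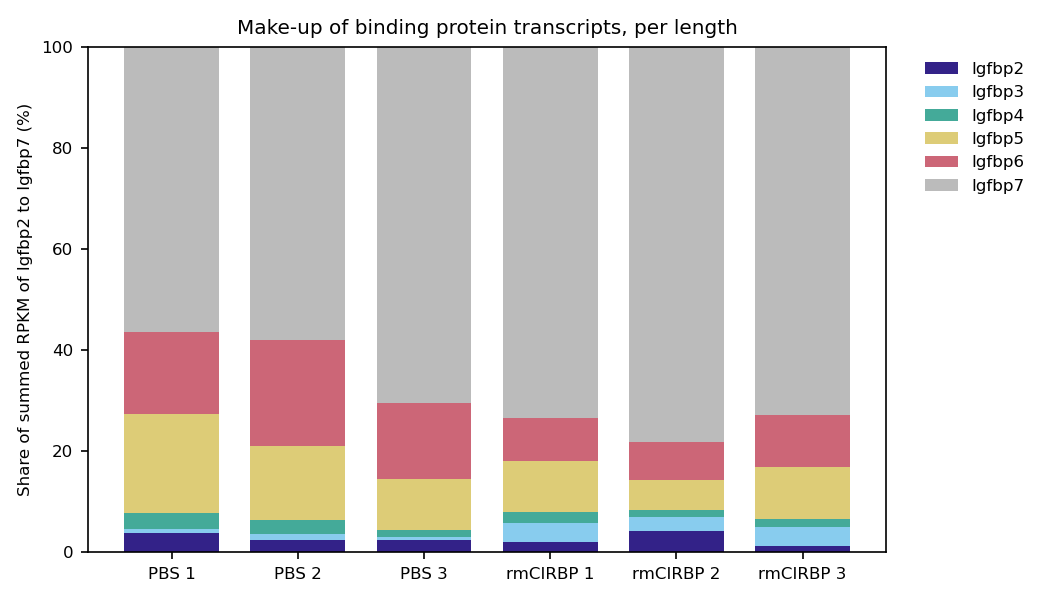
Share of each binding protein gene in the summed RPKM of Igfbp2 to Igfbp7 (y axis, percent) in each library (x axis). Igfbp7, in grey, takes 56.5% to 78.2% of every bar, the Igfbp6 band is narrower in the rmCIRBP libraries, and the Igfbp3 band is wider.

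Summed over Igfbp2 to Igfbp6, which bind IGF with high affinity, the level was 510, 584 and 443 RPKM in PBS libraries 1, 2 and 3. In the rmCIRBP libraries it was 332, 213 and 450.1 RPKM, so that rmCIRBP 3 lay above PBS 3. For each 100 RPKM of these binding proteins, Igf1 stood at 2.19, 1.32 and 2.04 RPKM in PBS and at 4.00, 7.66 and 3.98 RPKM in rmCIRBP. The highest value, in rmCIRBP 2, goes with the lowest binding protein sum and not with the highest Igf1 level, which was in rmCIRBP 3. RNA levels do not give the amounts of secreted protein.

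Pappa, the protease that releases IGF from its carriers, lies on chromosome 4 (65124174 to 65357509, plus strand). It was at 301, 216 and 163 CPM in PBS and at 334, 381 and 396 CPM in rmCIRBP libraries 1, 2 and 3. The groups did not overlap, and PBS 1 was nearest to the rmCIRBP libraries. The log2 ratio was 0.71 ± 0.21 (SE; BH-adjusted p = 0.0712 by edgeR). Without PBS 1 it was 0.98 and passed the test (adjusted p = 0.0158). With 1 library left out in turn the ratio ran from 0.52 to 0.98, and the adjusted p of the alternative analyses reached 0.198. Pappa2, a related protease, was at 7.18 ± 6.46 CPM in PBS and 9.34 ± 6.60 CPM after rmCIRBP (log2 ratio 0.39 ± 0.69, SE; BH-adjusted p = 0.749 by edgeR).

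Stc2, the inhibitor of PAPP-A among the members (chromosome 11, 31357307 to 31370074, minus strand), was at 46.4, 28.4 and 13.9 CPM in PBS and at 24.4, 41.0 and 26.6 CPM after rmCIRBP. All rmCIRBP libraries lay within the range of PBS. The log2 ratio was 0.06 ± 0.40 (SE; BH-adjusted p = 0.942 by edgeR), and its sign turned without PBS 3 (-0.29), without rmCIRBP 2 (-0.21) and with upper quartile scaling (-0.001447). The SE of Stc2 was the widest of the 10 members, so a change of moderate size was not detectable in these libraries. Its paralogue Stc1, also an inhibitor of PAPP-A, fell from 68.3 ± 40.1 to 5.07 ± 3.79 CPM (log2 ratio -3.75 ± 0.68, SE; BH-adjusted p = 0.0128 by edgeR), and was not called without PBS 2 (0.0546) or rmCIRBP 1 (0.0616).

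Members varied within groups as well. Of the 6 binding protein genes, 5 were lowest of the rmCIRBP group in rmCIRBP 2, with Igfbp2 as the exception, which was highest there. Over genes at large rmCIRBP 2 also stood apart. Its counts differed from those of rmCIRBP 1 and 3 by a chi-square per degree of freedom of 30.4 and 54.5. Between rmCIRBP 1 and 3 this was 13.7. The shares of all genes that were lowest or highest in a given library were not computed, so such counts of members are descriptions only. Relative to the mean of the rmCIRBP group, rmCIRBP 2 stood at -1.04 for Igfbp5, -0.79 for Igfbp3, -0.68 for Igfbp6 and -0.66 for Igfbp4 on the log2 scale. The summed smooth muscle genes stood at 0.97 in the same library. PBS 1, the PBS library with the most smooth muscle transcripts, was highest of its group for 6 of the 10 members, with Stc2 at 0.65 and Pappa at 0.41. In PBS 1 Igfbp5 and Igfbp4 stood at 0.23 and 0.20, opposite in sign to rmCIRBP 2, and Igfbp3 and Igfbp6 at -0.08 and -0.32. The library with the lowest smooth muscle sum, rmCIRBP 3 (-1.80), was also highest of its group for 6 of the 10 members. Without PBS 1 and rmCIRBP 2 together, a choice made after the data were seen, the calls of Igf1 and Igfbp3 held (adjusted p = 0.0102 and 0.000921), Pappa was called higher (0.00859), and Igfbp2 and Igfbp6 were called lower (0.0175 and 0.0387). Calls over all genes also rose in that fit, from 1818 to 2802 (1669 higher and 1133 lower). The part of smooth muscle cells in these differences was not tested, and fewer cells of a type and less RNA per cell cannot be told apart in such samples.

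**Figure D4:**
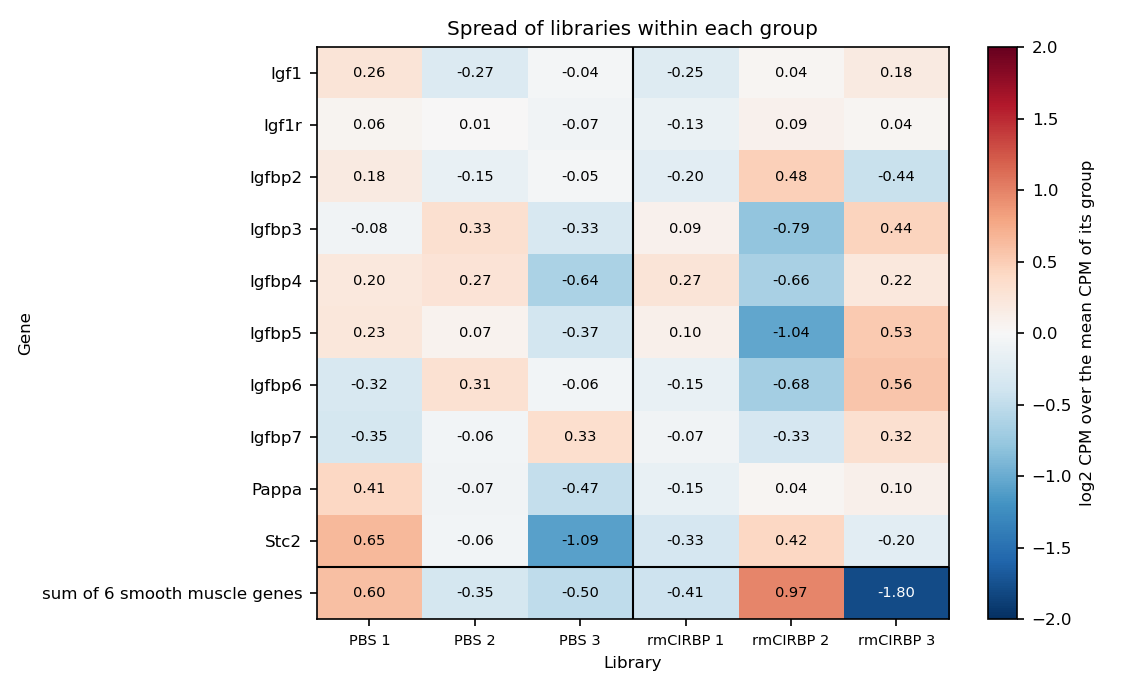
Log2 of each library's CPM over the mean CPM of its own group (colour and printed value) for the 10 genes and, in the bottom row, for the sum of 6 smooth muscle genes. The column of rmCIRBP 2 is low for Igfbp3, Igfbp4, Igfbp5 and Igfbp6 and high for Igfbp2 and the smooth muscle sum.

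Over the 6 libraries, the genes whose log2 CPM followed Igfbp3 most closely among 15035 genes with a mean of at least 1 CPM were Cxadr, Ube2l6 and Ccl11. Cxadr encodes a junction protein that serves as a virus receptor, Ube2l6 the conjugating enzyme of the ubiquitin-like ISG15, and Ccl11 the eosinophil chemoattractant eotaxin. Pearson's r with Igfbp3 was 0.999, 0.997 and 0.996, given as a description since these libraries form separate groups. Cxadr was at 4.30 to 6.17 CPM in PBS and 11.2 to 24.7 CPM after rmCIRBP, and like Igfbp3 was lowest of the rmCIRBP group in library 2. Ccl11 was at 0.295 ± 0.253 CPM in PBS, near the level of 3 counts, and at 7.02 ± 4.14 CPM after rmCIRBP. It therefore reached a mean of 1 CPM only through the rmCIRBP group, and its r rests in part on PBS values near that level.

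Genes around the axis were examined in 6 lists, and 10 of their 86 tested genes were called higher and 7 lower, where 6.74% of all genes were called higher and 4.77% lower. At an unadjusted p under 0.05 there were 35 of the 86, against 28.8% of all genes, and DESeq2 called 25, against 13.9% of the genes it tested. Among receptors, adaptors and binding genes outside the members, 1 of 13 rose and 3 fell (median log2 fold change -0.08), where 5 had an unadjusted p under 0.05 and DESeq2 called 5. Of all genes 6.74% were called higher and 4.77% lower. Irs2, an insulin receptor substrate, rose from 39.2 ± 3.51 to 54.7 ± 4.89 CPM (log2 ratio 0.48 ± 0.12, SE; BH-adjusted p = 0.0376 by edgeR). Irs1, the other main substrate, was at 79.8 ± 16.3 CPM in PBS and 50.7 ± 8.88 CPM after rmCIRBP with no overlap, and missed the threshold (log2 ratio -0.66 ± 0.18, SE; BH-adjusted p = 0.0576 by edgeR). Grb10, an imprinted adaptor that dampens signalling of insulin and IGF1 receptors, fell from 789 ± 66.9 to 460.1 ± 23.7 CPM (log2 ratio -0.78 ± 0.12, SE; BH-adjusted p = 0.00742 by edgeR). Igf2r and Stc1 were the others that fell. The call of Irs2 ended without any 1 of the 6 libraries (adjusted p = 0.0672 to 0.117) and with library size or upper quartile scaling (0.0512 and 0.0579). Irs1 passed without PBS 1 (0.0300), with upper quartile scaling (0.0422) and by DESeq2 (0.0209).

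Of 10 genes of the growth hormone axis that controls Igf1 in liver, 3 rose and none fell (median log2 fold change 0.34), where 4 had an unadjusted p under 0.05 and DESeq2 called 3. The shares over all genes were 6.74% called higher, 28.8% by unadjusted p and 13.9% by DESeq2. Ghr, the growth hormone receptor, was at 259 ± 13.6 and 284 ± 25.7 CPM (log2 ratio 0.13 ± 0.12, SE; BH-adjusted p = 0.497 by edgeR). Jak2, the kinase bound to this and other cytokine receptors, rose (log2 ratio 1.87 ± 0.18, SE; BH-adjusted p = 0.000778 by edgeR), as did Socs1, a feedback inhibitor of JAK kinases (1.01 ± 0.22; adjusted p = 0.0269), and Ptpn1, a phosphatase of insulin receptor and JAK2 (0.68 ± 0.16; adjusted p = 0.0363). Socs1 was no longer called without PBS 1 (0.0521), PBS 2 (0.0767), PBS 3 (0.100), rmCIRBP 1 (0.0879) or rmCIRBP 3 (0.0626). Ptpn1 was no longer called without PBS 2 (0.101), PBS 3 (0.124), rmCIRBP 1 (0.120) or rmCIRBP 3 (0.0833).

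Of 25 genes for PI3K, AKT and TOR steps downstream of the receptor, edgeR called 0 in either direction (median log2 fold change 0.04), where 5 had an unadjusted p under 0.05 and DESeq2 called 1 (Pik3r2, a regulatory subunit of PI3K, named after its values were seen). Of 16 tested FOXO factors and genes that AKT signalling lowers through FOXO, 1 rose and 3 fell (median log2 fold change -0.46, against -0.01 over all genes tested), where 9 had an unadjusted p under 0.05 and DESeq2 called 7. Over all genes, 6.74% were called higher and 4.77% lower, 28.8% had such a p and DESeq2 called 13.9%. The number that fell was 1 without PBS 2, PBS 3 or rmCIRBP 1 and 6 without PBS 1. Those that fell were Cdkn1b, a cell cycle inhibitor (log2 ratio -0.79 ± 0.13, SE; BH-adjusted p = 0.00905 by edgeR), Sesn3, a stress-induced regulator of TOR (-0.96 ± 0.24; 0.0428), and Txnip, a thioredoxin inhibitor that also curbs glucose uptake (-1.02 ± 0.26; 0.0432). Sod2, mitochondrial superoxide dismutase, rose (3.57 ± 0.17; 3.84e-05), and is also a known NF-kB target. The calls of Sesn3 and Txnip ended without PBS 2 (0.116 and 0.133), PBS 3 (0.145 and 0.137) or rmCIRBP 1 (0.0993 and 0.126), and that of Txnip also without rmCIRBP 2 (0.0830) and with a robust fit (0.0506).

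Of 13 tested proteases known to cut IGF-binding proteins, 4 rose and 1 fell (median log2 fold change -0.16), where 8 had an unadjusted p under 0.05 and DESeq2 called 6. Against this stand 6.74% of all genes called higher, 4.77% called lower, 28.8% by unadjusted p and 13.9% by DESeq2. Adam12, a metalloprotease that cuts IGFBP3 and IGFBP5, rose from 43.2 ± 4.80 to 81.4 ± 18.6 CPM (log2 ratio 0.91 ± 0.17, SE; BH-adjusted p = 0.0144 by edgeR). The matrix metalloproteases Mmp3 (3.47 ± 0.46; 0.00343) and Mmp9 (2.71 ± 0.36; 0.00355) rose, Mmp9 to only 4.03 ± 0.871 CPM, and Plat, tissue plasminogen activator, fell (-1.16 ± 0.25; 0.0245). C1ra, a complement protease named here after its values were seen, rose (1.75 ± 0.43; 0.0394) and has a close copy in the genome, so its counts are uncertain. Adam12 was not called without PBS 3 (0.0648), Plat without PBS 2 (0.0952), PBS 3 (0.0922) or rmCIRBP 1 (0.0757), and C1ra without any 1 library other than rmCIRBP 2 (0.0713 to 0.124) or by limma voom (0.0541).

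Of 10 tested genes for other proteins with an IGFBP-like domain, 1 rose and none fell (median log2 fold change -0.17), where 5 had an unadjusted p under 0.05 and DESeq2 called 3. For all genes the shares were 6.74% called higher, 28.8% by unadjusted p and 13.9% by DESeq2. Ccn5, a secreted matricellular protein of the CCN family, rose from 259 ± 60.2 to 550.1 ± 21.7 CPM (log2 ratio 1.09 ± 0.17, SE; BH-adjusted p = 0.00742 by edgeR). Its libraries were at 325, 243 and 208 CPM in PBS and at 526, 569 and 555 CPM after rmCIRBP.

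**Figure D5:**
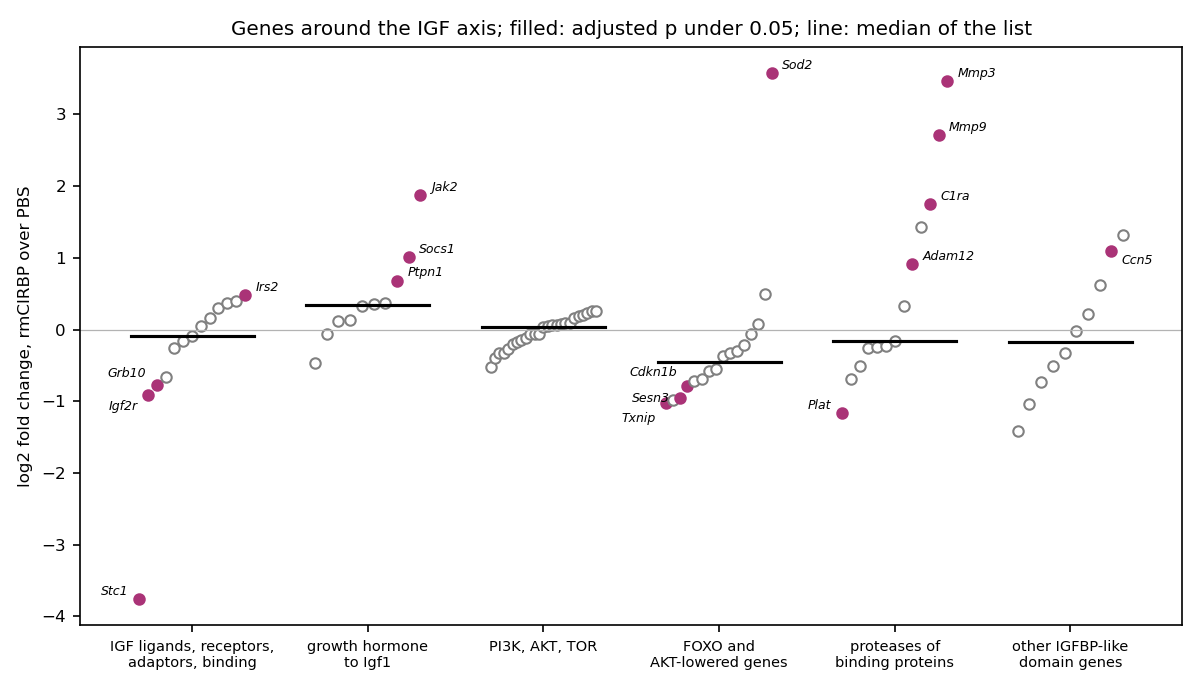
Log2 fold change, rmCIRBP over PBS (y axis), of each tested gene in the 6 lists (x axis). Filled points passed an adjusted p of 0.05 and are named, and the line is the median of the list. The PI3K, AKT and TOR list has no filled point, and the median of the FOXO list lies at -0.46.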

How the data were processed

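A table of raw counts, deposited by the authors, covers 6 polyA-selected TruSeq libraries. Per the submitters' processing notes, featureCounts, DESeq2, R 4.1.2 and the GRCm38 (mm10) build were used. Aligner, annotation release and strand setting: not given in the sources used here. Column names hold an abbreviated group and a number, by which they were matched to the sample titles, and 0 sample columns were unused. Depth was 12105584 to 14262375 counts per library.

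Here, genes were filtered with filterByExpr, scaled by trimmed mean of M values (TMM) and tested with edgeR 4.0.16 in R 4.3.3 (quasi-likelihood F test, treatment only, Benjamini-Hochberg over 15801 genes, threshold 0.05). CPM used TMM-scaled totals, and RPKM divided CPM by union exon length in GENCODE M21 (GRCm38), where all 10 members had the deposited start and end. Alternatives were other scalings and filters, DESeq2 1.42.0, limma 3.58.1 (voom), a robust fit, a replicate block and leaving out libraries. Promoter windows are RefSeq's.

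In a simulation of the rmCIRBP and PBS libraries with 15801 genes, 200 of them changed, edgeR recovered 59% of 2-fold and 92% of 4-fold changes, with 10.7% false among 169 calls. This false share was above the threshold of 0.05. The simulated share of changed genes was smaller than the 11.5% called in the data, and noise was drawn separately for each gene. These rates may therefore differ in the real libraries. The members, the lists and the rule for named genes (all members, up to 4 called genes per list by smallest p with Igf2, Igf2r, Insr, Irs1, Irs2, Ghr and Stc1, Myh11 and Actg2, and the 3 genes most like the called member of smallest p) were chosen with earlier results of these data known. Igf1os, Polr2b, Igfbp1, Igfals, Pappa2, Pik3r2 and C1ra were named after their values were seen. No p is given for the members as a set.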

Additional observations from a re-analysis of the deposited data

How the results depend on the processing

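Igfbp3 was called higher under every alternative run. Genes called, 1818 in all, numbered 723 to 2144 with 1 library left out (513 to 1299 higher, 203 to 845 lower). Without PBS 1 and rmCIRBP 2 together, a choice made after the data were seen, 2802 were called (1669 higher, 1133 lower). Members called higher were 1 to 3 and lower 0 to 1 with 1 library left out. Called lower were 1 without the low-count filter, 1 by DESeq2 and 2 without PBS 1 and rmCIRBP 2. In the 6 lists, 5 to 12 were higher and 2 to 13 lower with 1 library left out. Lower calls there were 11 with upper quartile scaling, 16 without the filter, 14 by DESeq2 and 19 without PBS 1 and rmCIRBP 2. With 1 library left out, log2 ratios were 0.66 to 0.92 for Igf1, -0.69 to -0.19 for Igfbp2, -1.39 to -0.75 for Igfbp6, 0.52 to 0.98 for Pappa, -0.0021 to 0.39 for Igfbp7 and -0.29 to 0.55 for Stc2. Igfbp6 passed without the filter (-0.99, adjusted p = 0.00537), by DESeq2 (-1.002) and without PBS 1 and rmCIRBP 2 (-0.89), where Igfbp2 passed too (-0.59). Pappa passed in the same 3 analyses (0.73, 0.72 and 0.95). Stc2 was at -0.0014 with upper quartile scaling. The cause of these shifts was not tested. By CPM without length, shares in PBS and rmCIRBP were 1.303% and 5.85% (Igfbp3), 5.21% and 4.44% (Igfbp4), 43.4% and 29.6% (Igfbp5), 9.62% and 5.55% (Igfbp6) and 37.8% and 51.7% (Igfbp7). Deviations of libraries sharing a replicate number had correlations of -0.11, -0.17 and 0.25, and PBS 1 went best with rmCIRBP 2. A pairing by number is not stated in the sources used here. With 3 libraries per group, these correlations cannot decide whether there was one. A replicate block gave 1258 calls, 466 of them lower, with 1 member higher, 6 list genes higher and Igf1 at 0.77 (adjusted p = 0.0577). It also ended the calls of Irs2 (0.0576), Socs1 (0.0600), Ptpn1 (0.0648) and C1ra (0.0737).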
